A study of Mus musculus with 6 samples.

Results

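The genes described here are 10 markers that distinguish arterial, venous and lymphatic endothelium, taken by symbol from the 23420 mouse genes of the count table: Gja4, Gja5, Cxcr4, Unc5b, Nr2f2, Aplnr, Emcn, Prox1, Lyve1 and Pdpn. They were measured in eEnd2 cells, a mouse line of embryonic endothelial origin, that stably carried a human Integrin-β1A chimera with GFP in its extracellular part. The chimera was either wildtype (β1-WT-GFP) or had glutamine in place of Lys794 to mimic acetylation (β1-K794Q-GFP), and both were driven by a short human β-actin promoter with a chicken lysozyme matrix attachment region, next to the mouse Integrin-β1 of the line. Each group consisted of 3 untreated confluent cultures of GFP-sorted cells, called WT-A, WT-B and WT-C and K794Q-A, K794Q-B and K794Q-C here. They were grown in DMEM with fetal calf serum, and p values measure the spread between cultures of sorted cells. Separate transfections of a construct are not described in the sources used here. The mutation thus cannot be told apart from other differences between the transfected cells of the groups. Which GFP sort, low or high, a culture came from is not given in the sources used here.

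Arterial and venous endothelial cells acquire separate programs early in the embryo. Nr2f2 encodes COUP-TFII, the nuclear receptor that holds the venous program and represses Notch signaling, whereas the arterial program includes the gap junction connexins of Gja4 (Cx37) and Gja5 (Cx40) and the chemokine receptor of Cxcr4. Lymphatic endothelium arises mainly from veins, where Prox1, the master transcription factor of lymphatic fate, acts together with COUP-TFII, and lymphatic vessels then carry the hyaluronan receptor of Lyve1 and the sialoglycoprotein podoplanin of Pdpn.

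Each culture had between 9589826 and 15287191 counts in total. A count of 0 allows up to 3 counts, or 0.209 to 0.300 CPM depending on the culture, for counting error only. Values are normalized counts (CPM, scaled with edgeR's TMM method). The table counts mouse genes and has no row for the human chimera, so the labels could not be checked by it. WT-C stood apart from WT-A and WT-B, with 2701 and 2539 of 11608 tested genes at least 2-fold from them, against 65 between WT-A and WT-B. K794Q-B was at least 2-fold from K794Q-A in 2001 genes and from K794Q-C in 2562, and K794Q-A and K794Q-C differed by as much in 903. The pan-endothelial genes Pecam1 and Cdh5 had 1779 to 2818 and 1294 to 3994 normalized counts in the 6 cultures. All 20 genes of that list passed the filter on low counts, which asks for 3 cultures, but Cldn5 ranged from 0 in K794Q-B and 4.74 in WT-C to 267 in WT-A, Clec14a was at 7.01 in K794Q-B, and Vwf had at most 2.41.

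Of the 10 markers, 6 passed that filter and could be tested, 2 were under it (Gja5 and Lyve1), and 2 had no read in any culture (Prox1 and Pdpn). Cxcr4 was lower and Aplnr higher in β1-K794Q-GFP cells by the thresholds of the study, a 2-fold difference together with an unadjusted p of up to 0.05 (edgeR's quasi-likelihood test). The same thresholds were passed by 5.19% of all tested genes. At an adjusted p of at most 0.05 none of the 6 remained, where 0.181% of all tested genes did. DESeq2, run as an alternative, left 1 of them, Aplnr, beside 4.11% of all tested genes. Without a filter on low counts Cxcr4 and Aplnr were again the 2 that passed both thresholds, as did 5.73% of all genes then tested. With WT-C and K794Q-B both left out, an alternative added after the data were seen, 3 markers passed them (Aplnr, Cxcr4 and Gja4) against 14.2% of all genes, and 2 had adjusted p under 0.05 against 15.3%. Only Aplnr had groups that did not overlap, which held for 16.6% of all tested genes. The median log2 fold change was -0.08 over the 6 markers and -0.02 over all tested genes.

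**Figure D1:**
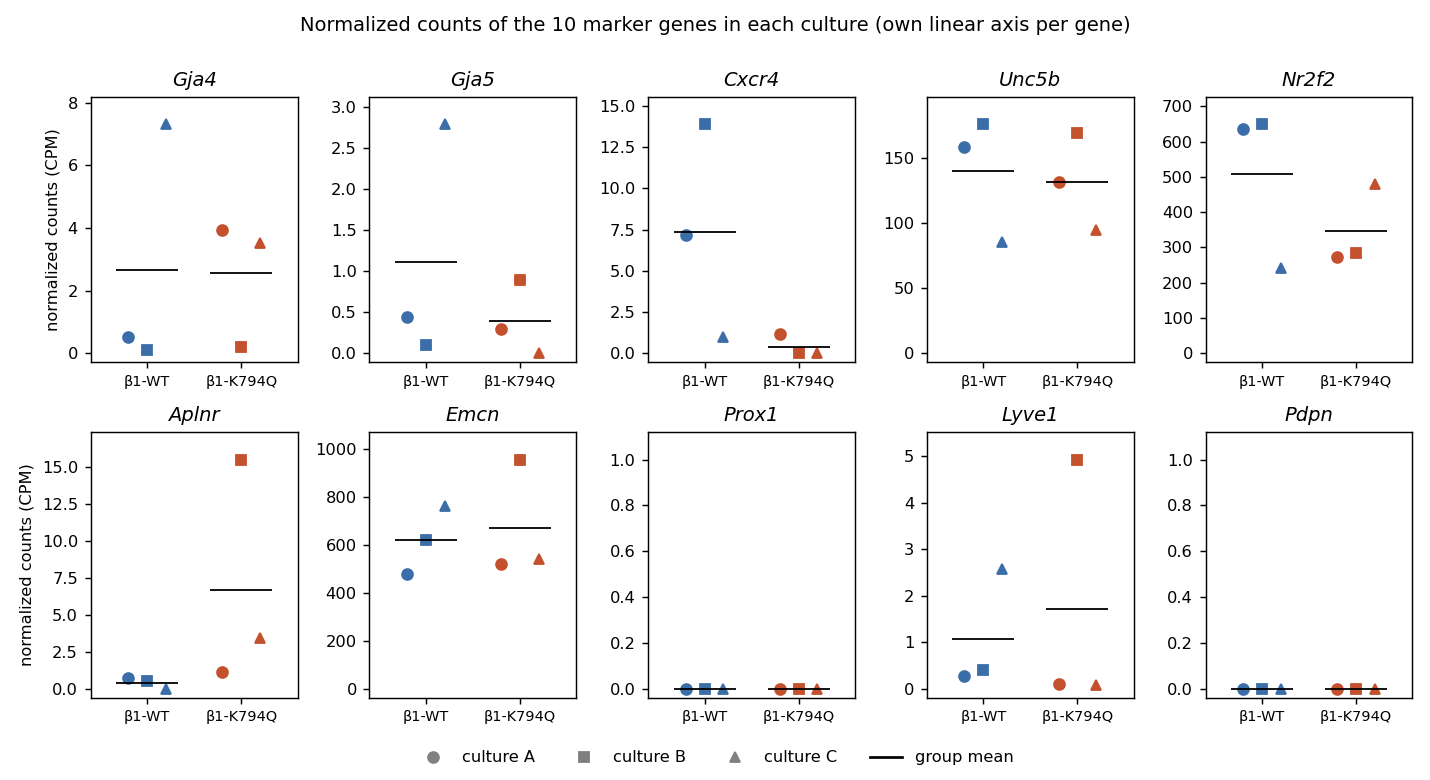
Normalized counts (CPM, vertical axis, a linear axis for each gene) of the 10 markers in the 3 β1-WT-GFP (blue) and 3 β1-K794Q-GFP (red) cultures, with circles, squares and triangles for cultures A, B and C of each group and a line at the group mean. Nr2f2, Emcn and Unc5b had 85.7 normalized counts or more in all 6 cultures, Prox1 and Pdpn were at 0 in all 6, and each of the rest was far higher in 1 or 2 cultures of a group than in its others.

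Levels per length separated an abundant set from a scarce one. Counted as CPM per kilobase of exons, the median level over the 6 cultures was 107 for Emcn (lowest culture 88.7, highest 177), 44.4 for Nr2f2 (28.1 to 75.3) and 23.2 for Unc5b (13.7 to 28.1). These 3 medians lay above those of 98.1%, 92.8% and 82.7% of the tested genes that have a position. The level of Emcn in its lowest culture was above Nr2f2 in its highest, whereas the ranges of Nr2f2 and Unc5b met at their ends. Then came Gja4 with a median level of 1.2 per kilobase, Cxcr4 with 0.589, Aplnr with 0.251, Lyve1 with 0.113 and Gja5 with 0.0632. The ranges of these 5 overlapped from each gene to the next, and the highest culture of Gja4 (4.34 per kilobase) was below the lowest of Unc5b. Of the venous and capillary genes, Nr2f2 and Emcn were thus abundant, and of the arterial genes Unc5b, at a lower median than both.

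**Figure D2:**
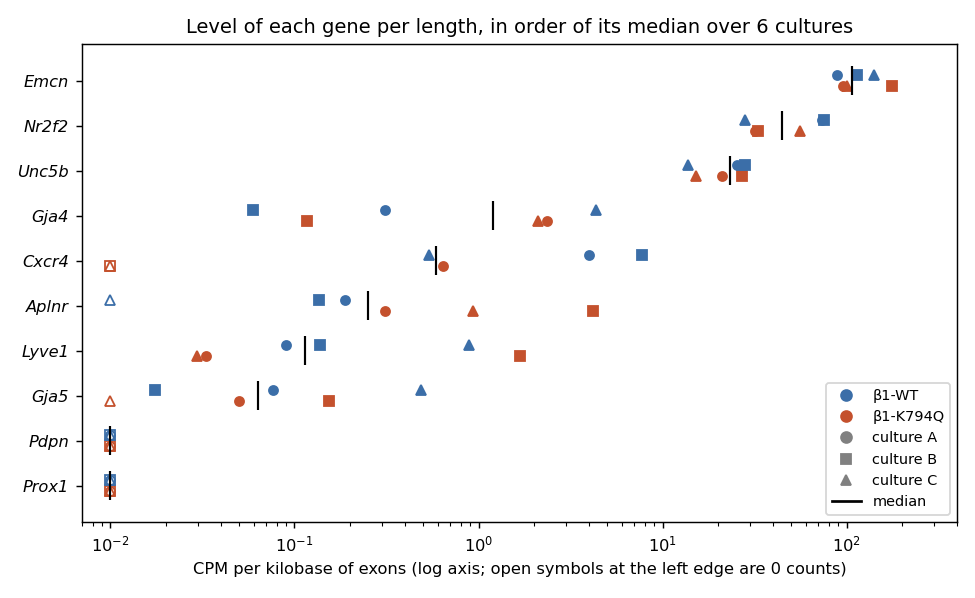
CPM per kilobase of exons (horizontal log axis) of each marker in each culture, in order of the median over 6 cultures (black line), with β1-WT-GFP cultures in blue and β1-K794Q-GFP cultures in red and open symbols at the left edge for 0 counts. Emcn, Nr2f2 and Unc5b lay between 13.7 and 177, and all values of the other genes were at or under 7.69.

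Nr2f2 lies on chromosome 7 of GRCm38 (70351944 to 70366735, minus strand). It had 635, 649.5 and 242 normalized counts in WT-A, WT-B and WT-C, and 273, 284 and 481 in K794Q-A, K794Q-B and K794Q-C. The groups overlapped, because WT-C was the lowest of the 6 and each β1-K794Q-GFP culture lay above it. The means were 509 ± 231 against 346 ± 117 (SD, 3 cultures each), and the log2 fold change of -0.56 ± 0.44 (fitted value ± SE, here and after) did not pass the thresholds, with an adjusted p of 0.777. Without WT-C it was -0.88 (unadjusted p = 0.0327, adjusted p = 0.262, edgeR), without K794Q-C -0.87, and without both WT-C and K794Q-B -0.75 (adjusted p = 0.162, edgeR), each short of a fold of 2. B130024G19Rik, a transcript annotated on the opposite strand, shares 643 exonic bases with Nr2f2. It had 30.1, 26.2 and 4.18 normalized counts in WT-A, WT-B and WT-C and 6.35, 4.34 and 10.9 in K794Q-A, K794Q-B and K794Q-C. WT-A and WT-B were thus highest and WT-C lowest for both transcripts, but the strand setting of the counting is not given in the sources used here, so reads in the shared bases cannot be told apart. Nr2f1, the close relative of Nr2f2, had between 3.06 and 11.5 normalized counts and a log2 fold change of -0.38.

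Emcn encodes endomucin, a sialomucin of venous and capillary endothelium (chromosome 3, 137341067 to 137432185). It had 479.8, 619.5 and 765 normalized counts in WT-A, WT-B and WT-C and 519, 958 and 540.4 in K794Q-A, K794Q-B and K794Q-C. K794Q-B was the highest and WT-A the lowest, but K794Q-A and K794Q-C lay between WT-A and WT-B, so the groups overlapped. The means were 621 ± 142 and 673 ± 247 (SD, 3 cultures each), a log2 fold change of 0.11 ± 0.34. It was -0.23 without K794Q-B and -0.045 without WT-A.

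Aplnr encodes the apelin receptor, a G protein-coupled receptor of venous and sprouting endothelium, and lies on chromosome 2 (85136225 to 85139923). In WT-A, WT-B and WT-C it had 8, 5 and 0 reads, or 0.70, 0.50 and 0 normalized counts. In K794Q-A, K794Q-B and K794Q-C it had 12, 157 and 40 reads, or 1.16, 15.5 and 3.44 normalized counts. Each β1-K794Q-GFP culture was above each β1-WT-GFP culture, K794Q-A by little and K794Q-B by far. The 95% counting intervals of K794Q-A (0.597 to 2.02) and WT-A (0.302 to 1.38) overlapped, so their order was within counting error. The mean rose from 0.40 ± 0.36 to 6.70 ± 7.70 (SD, 3 cultures each), a log2 fold change of 4.07 ± 1.37, an unadjusted p of 0.0232 in edgeR's test and an adjusted p of 0.363. Because a gene needs 3 cultures at 0.909 CPM to pass the filter and only the β1-K794Q-GFP cultures reached that level, Aplnr could be tested only by virtue of the group in which it was high. It passed both thresholds in 4 of 6 leave-one-out fits. Without K794Q-B the log2 fold change was 2.56 (unadjusted p = 0.0759, edgeR), and without WT-B it was 4.27 (unadjusted p = 0.0614, edgeR). With the closely similar WT-A and WT-B summed to 1 sample the unadjusted p was 0.0550 (edgeR), and without both WT-C and K794Q-B the log2 fold change was 1.94 (adjusted p = 0.128, edgeR).

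The arterial connexins were scarce and varied within both groups. Gja4 (chromosome 4, 127311421 to 127314039) had 6, 1 and 105 reads in WT-A, WT-B and WT-C and 41, 2 and 41 reads in K794Q-A, K794Q-B and K794Q-C. Scaled for depth, these were 0.525, 0.10 and 7.31 normalized counts and 3.95, 0.197 and 3.53 normalized counts. WT-C, K794Q-A and K794Q-C were thus high, and the other 3 had 6 reads or fewer. Between WT-C and WT-B the ratio was 73.1, with a 95% counting interval from 12.8 to 2916.2. The log2 fold change was -0.07 ± 1.47 (adjusted p = 0.994, edgeR), and it was 2.98 without WT-C. Without both WT-C and K794Q-B it was 3.50 with an adjusted p of 0.0244 in edgeR's test. The within-group SD of Gja4, 1.74 on the log2(CPM + 0.5) scale, was above that of 97.1% of the tested genes, whose median was 0.35. Cxcr4 with 1.39 and Aplnr with 1.26 were nearly as variable, above 95.1% and 93.9% of the tested genes.

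Gja5 (chromosome 3, 96904693 to 97077416) had few reads, with 5, 1 and 40 reads in WT-A, WT-B and WT-C and 3, 9 and 0 reads in K794Q-A, K794Q-B and K794Q-C. Its highest culture, as for Gja4, was WT-C at 2.79 normalized counts. It was under the filter, and an exact permutation test of the normalized counts gave p = 0.6, two-sided, where 3 cultures against 3 cannot go below 0.1. In the fit without a filter its log2 fold change was -1.53 ± 1.43 (adjusted p = 0.749). Gpr89 on the opposite strand shares 165 exonic bases with Gja5, and how reads in these bases were counted is not given in the sources used here. Gja1 and Gjc1, the connexins Cx43 and Cx45 of many cell types, were present throughout, Gja1 with 25.2 to 249.7 normalized counts and Gjc1 with 25.2 to 77.8, and neither passed the thresholds.

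Cxcr4 encodes the receptor of the chemokine CXCL12, found on arterial and sprouting endothelium and on blood cells (chromosome 1, 128588199 to 128592293). It had 82, 139 and 14 reads in WT-A, WT-B and WT-C and 12, 0 and 0 reads in K794Q-A, K794Q-B and K794Q-C. The normalized counts were 7.17, 13.9 and 0.98 in the first group and 1.16, 0 and 0 in the second. WT-A and WT-B were high and the other 4 cultures low or at 0, and the groups overlapped because K794Q-A was above WT-C. That order was within counting error, with 95% counting intervals of 0.597 to 2.02 in K794Q-A and 0.533 to 1.64 in WT-C. The mean fell from 7.35 ± 6.46 to 0.385 ± 0.667 (SD, 3 cultures each), a fitted log2 fold change of -4.23 ± 1.59. The unadjusted p was 0.0360 and the adjusted p 0.430 in edgeR's test. Cxcr4 reached the filter level in 3 β1-WT-GFP cultures and 1 β1-K794Q-GFP culture, so it too passed the filter through the group in which it was high. Among the 6 leave-one-out fits, it was past both thresholds only without K794Q-A, where both remaining β1-K794Q-GFP cultures were at 0, and without WT-C (-4.74). Without any of the other 4 it was between -4.25 and -3.38 and not past them. With WT-A and WT-B summed to 1 sample it was -3.86 with an unadjusted p of 0.0852, and without both WT-C and K794Q-B it was -4.20 (adjusted p = 0.0485, edgeR). Among the 25 tested genes nearest to Cxcr4 on chromosome 1, the median log2 fold change was -0.45 and 5 were above 0. The part of this neighborhood in the value of Cxcr4 was not tested.

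Unc5b, the netrin receptor of arterial and tip endothelial cells, lies on chromosome 10 (60762593 to 60831581). It had 159, 176 and 85.7 normalized counts in WT-A, WT-B and WT-C and 132, 169 and 94.5 in K794Q-A, K794Q-B and K794Q-C. WT-C and K794Q-C were the lowest of their groups and WT-B and K794Q-B the highest, and the groups covered nearly the same range. The means were 140 ± 47.9 and 132 ± 37.4 (SD, 3 cultures each), a log2 fold change of -0.09 ± 0.34 and an adjusted p of 0.968. All 25 tested genes nearest to it had a log2 fold change above 0, with a median of 0.45, although 0 of them passed both thresholds. Unc5b itself lay below 0, but above it without K794Q-C, WT-A or WT-B, at 0.10, 0.0066 and 0.11. Without both WT-C and K794Q-B it was -0.55 (adjusted p = 0.135, edgeR).

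**Figure D3:**
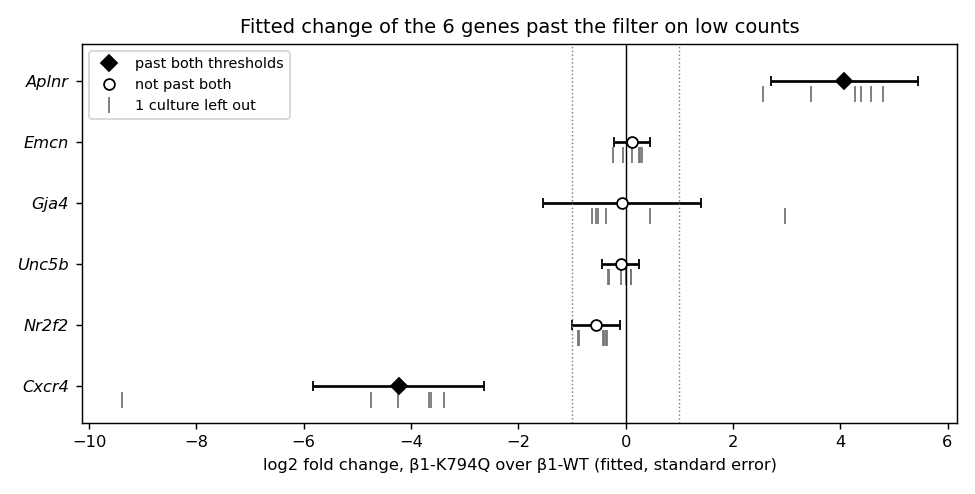
Fitted log2 fold change, β1-K794Q-GFP over β1-WT-GFP (horizontal axis), with its standard error for the 6 tested markers, filled diamonds for those past both thresholds, dotted lines at a fold of 2 and grey ticks for the fits with 1 culture left out. Aplnr at 4.07 and Cxcr4 at -4.23 lay far from 0 with wide errors, and Emcn, Unc5b and Nr2f2 lay between -0.56 and 0.11.

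Lymphatic markers were not detected or nearly so. Prox1 (chromosome 1, 190118035 to 190170714) and Pdpn (chromosome 4, 143267431 to 143299564) had 0 reads in each of the 6 cultures, which by the limit of 3 counts allows up to 0.300 CPM. Among all 23420 genes, 7446 had 0 reads throughout. Lyve1 (chromosome 7, 110850607 to 110863239) had 3, 4 and 37 reads in WT-A, WT-B and WT-C and 1, 50 and 1 reads in K794Q-A, K794Q-B and K794Q-C. It was thus seen mainly in 1 culture of each group, at 2.58 normalized counts in WT-C and 4.93 in K794Q-B, with 95% counting intervals of 1.81 to 3.55 and 3.66 to 6.51. The exact permutation test gave p = 1, two-sided, and the fit without a filter a log2 fold change of 0.61 ± 1.54 (adjusted p = 0.924). Among other hyaluronan receptor genes, Stab2 had 0.70 to 1.66 normalized counts in WT-A and WT-B, 0.139 in WT-C, 1.44 in K794Q-A, 0 in K794Q-B and 13.3 in K794Q-C. Cd44, another of them, had 17.7 to 423 normalized counts and a log2 fold change of -0.75. The stabilin gene Stab1 had 242 to 1017 normalized counts and -0.62, and neither passed the thresholds.

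The sequences just upstream of these genes were compared for 8 of the 10, Aplnr and Lyve1 having no entry in the RefSeq promoter table (GRCm38.p6). Searched on both strands from 250 bases before to 50 bases after the start, the ETS core GGAAG was found in 5 of the 8 genes, against 71.4% of 32851 promoters. The SP1/KLF box GGGCGG was in 6 of 8 (35.7% of all promoters), the SOX core ACAAT in 4 of 8 (31.0%), the COUP-TFII element AGGTCA in 2 of 8 (16.3%), the RBPJ site TGGGAA in 1 of 8 (25.6%), the hypoxia element core ACGTG in 1 of 8 (19.6%) and the GATA core AGATAA in 0 of 8 (11.2%). Genes were counted if any of their windows held the motif, whereas the shares are per promoter. Prox1 had more than 1 window and held the RBPJ match. The RBPJ and ETS letters can overlap. The 250 bases before the start are given 5′ to 3′ on the strand of the gene for Emcn and Nr2f2, the most abundant markers, for Cxcr4, which was lower in β1-K794Q-GFP cells, and for Pdpn, which had no read. Capitals mark any of these motifs on either strand.
Emcn, chr3:137340828-137341077, plus strand: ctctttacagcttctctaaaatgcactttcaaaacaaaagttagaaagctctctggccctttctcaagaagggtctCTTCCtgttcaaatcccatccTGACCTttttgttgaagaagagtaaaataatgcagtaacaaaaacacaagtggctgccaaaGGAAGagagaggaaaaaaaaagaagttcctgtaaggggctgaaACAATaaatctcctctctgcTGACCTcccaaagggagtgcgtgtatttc
Nr2f2, chr7:70366747-70366996, minus strand: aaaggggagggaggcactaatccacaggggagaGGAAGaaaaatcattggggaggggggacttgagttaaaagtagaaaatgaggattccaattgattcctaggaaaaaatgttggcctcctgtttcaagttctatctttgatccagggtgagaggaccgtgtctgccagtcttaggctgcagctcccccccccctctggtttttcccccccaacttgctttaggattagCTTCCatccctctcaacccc
Cxcr4, chr1:128592300-128592549, minus strand: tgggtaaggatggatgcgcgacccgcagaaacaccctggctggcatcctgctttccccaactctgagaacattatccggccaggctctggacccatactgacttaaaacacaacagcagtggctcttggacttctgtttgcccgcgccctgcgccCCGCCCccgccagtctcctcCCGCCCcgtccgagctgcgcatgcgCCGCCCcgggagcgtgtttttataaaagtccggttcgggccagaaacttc
Pdpn, chr4:143299565-143299814, minus strand: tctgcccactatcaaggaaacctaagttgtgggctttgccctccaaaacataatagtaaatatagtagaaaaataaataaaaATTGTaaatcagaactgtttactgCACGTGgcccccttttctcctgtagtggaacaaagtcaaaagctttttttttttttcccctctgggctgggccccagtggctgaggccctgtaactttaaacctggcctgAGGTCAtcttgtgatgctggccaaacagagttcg
Emcn held 2 ETS cores, 2 COUP-TFII elements and 1 SOX core, Nr2f2 held 2 ETS cores, and Cxcr4 held 3 SP1/KLF boxes and 0 of the other motifs. Pdpn held a COUP-TFII element, a SOX core and the hypoxia element core on both strands of a palindrome, and its 2 SP1/KLF boxes lie after the start, outside the stretch shown. These matches describe the letters of the windows, and the counts hold no measure of binding there.

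The ligand genes Apln and Cxcl12 varied more within the β1-WT-GFP cultures than between the group means. Apln, the ligand of the apelin receptor, had 35.6, 41.2 and 1096.3 normalized counts in WT-A, WT-B and WT-C and 305, 393 and 649 in K794Q-A, K794Q-B and K794Q-C. Cxcl12, the ligand of CXCR4, had 5.86, 6.10 and 767 in WT-A, WT-B and WT-C and 9.53, 43.7 and 176 in K794Q-A, K794Q-B and K794Q-C. For both ligands WT-C was the highest of the 6, while its receptor genes were at 0 (Aplnr) or low (Cxcr4) there. The log2 fold change of Apln was 0.20 ± 1.30, and that of Cxcl12 was -1.77 ± 1.95. Without WT-C both were higher in β1-K794Q-GFP cells, Apln at 3.56 ± 0.42 (adjusted p = 0.0572, edgeR) and Cxcl12 at 3.68 ± 1.31 (adjusted p = 0.267, edgeR). Both ligand genes passed both thresholds in that fit, as did 992 of 11844 tested genes. Without both WT-C and K794Q-B they were 3.65 ± 0.41 and 3.97 ± 1.31 (adjusted p = 0.00833 and 0.109, edgeR). Ackr3 (Cxcr7 in the table), the scavenger receptor of CXCL12, had 7.74 to 109 normalized counts and was also highest in WT-C. Ntn1, encoding netrin-1, had 64.1, 54.3 and 18.1 normalized counts in WT-A, WT-B and WT-C and 94.1, 79.0 and 129 in K794Q-A, K794Q-B and K794Q-C, without overlap, as in 16.6% of all tested genes, and its log2 fold change of 1.15 just missed the threshold (unadjusted p = 0.0501, edgeR). Without WT-C it was 0.78. Of the 27 ligands and partners listed, 21 were tested and 0 passed both thresholds, beside 5.19% of all tested genes, with a median log2 fold change of 0.20.

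Among other genes of the 3 programs, 17 of 22 arterial genes were tested, 2 were higher and 1 lower at both thresholds, and the median log2 fold change was 0.31, beside 5.19% past both thresholds and a median of -0.02 over all tested genes. Fbln5, encoding the elastic fiber protein fibulin-5, had 36.7, 40.3 and 27.0 normalized counts in WT-A, WT-B and WT-C and 234, 81.8 and 164 in K794Q-A, K794Q-B and K794Q-C. Its log2 fold change of 2.21 ± 0.41 (adjusted p = 0.118, edgeR) stayed past both thresholds whichever culture was left out. Epas1, the hypoxia-inducible factor HIF-2α, had 184, 201 and 448 against 400.2, 563 and 1014.1 normalized counts in these cultures, with overlap. Its log2 fold change was 1.25 ± 0.50 (adjusted p = 0.468, edgeR), past both thresholds in 2 of 6 leave-one-out fits: the call was lost without K794Q-B, K794Q-C, WT-A or WT-B. Stmn2, a stathmin best known from neurons, was lower, but from 273 normalized counts in WT-C against 15.8 and 21.5 in WT-A and WT-B and 0 to 8.28 in β1-K794Q-GFP cells. Its log2 fold change went from -4.31 to -1.82 without that culture, and it passed both thresholds in 2 of 6 leave-one-out fits, those without WT-A or WT-B. Without both WT-C and K794Q-B, a choice made after the data were seen, it was -1.24 (adjusted p = 0.0259, edgeR). It was past both thresholds in that fit, as were 14.2% of all tested genes. The Notch targets Hey1 and Hey2, arterial transcription factors, had at most 2.79 and 0.0860 normalized counts. Efnb2, the arterial ephrin ligand, had 117 to 315 normalized counts and a log2 fold change of 0.01. Sox17, an arterial transcription factor, had 0.296 normalized counts in K794Q-B against 97.6 and 205 in K794Q-A and K794Q-C, and 17.9, 21.6 and 125 in WT-A, WT-B and WT-C. The cultures with much Sox17 were thus the 3 with much Gja4.

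Of the 13 venous genes 12 were tested, with a median log2 fold change of 0.23, and 1 was higher at both thresholds, which 5.19% of all tested genes passed. That gene, Tmem252, which encodes a membrane protein, had 13.3, 13.0 and 7.87 normalized counts in WT-A, WT-B and WT-C and 65.8, 104 and 21.2 in K794Q-A, K794Q-B and K794Q-C (log2 fold change 2.48 ± 0.59, adjusted p = 0.198, edgeR). It passed them with each culture left out in turn. Ephb4, the venous receptor of ephrin-B2, had 556 to 1234.2 normalized counts and a log2 fold change of 0.18, and Nrp2 479.5 to 1135.7 and 0.55. Of the 19 lymphatic genes 12 were tested, the median log2 fold change was -0.46 and 1 was lower, beside the same 5.19% of all tested genes. Foxc2, a transcription factor of lymphatic valves, had 12.4, 13.6 and 33.7 normalized counts in WT-A, WT-B and WT-C and 3.66, 4.34 and 3.87 in K794Q-A, K794Q-B and K794Q-C. The log2 fold change was -2.33 ± 0.45 (adjusted p = 0.136, edgeR), and Foxc2 stayed past both thresholds with each culture left out. Flt4, the VEGF-C receptor of veins and lymphatics, had 770.0, 709 and 150.1 normalized counts in WT-A, WT-B and WT-C and 268, 498 and 391 in K794Q-A, K794Q-B and K794Q-C, so that WT-C was the lowest, as for Nr2f2. Ccl21a, Mmrn1 and Tbx1 had 0 reads in all cultures, like Prox1. Sox18 had 75.2 to 247 normalized counts and Tspan18 101 to 305. Both Itga9 and Maf were under the filter. Itga9 had 11.2, 0.69 and 34.5 normalized counts in K794Q-A, K794Q-B and K794Q-C, with overlap, against 0.49 to 0.79 in β1-WT-GFP cells. Maf had 0.296 to 2.503 against 0 to 0.175, without overlap. Without K794Q-B their log2 fold changes were 5.11 and 4.57 (adjusted p = 0.0371 and 0.0972, edgeR). In that fit 125 genes had adjusted p under 0.05.

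**Figure D4:**
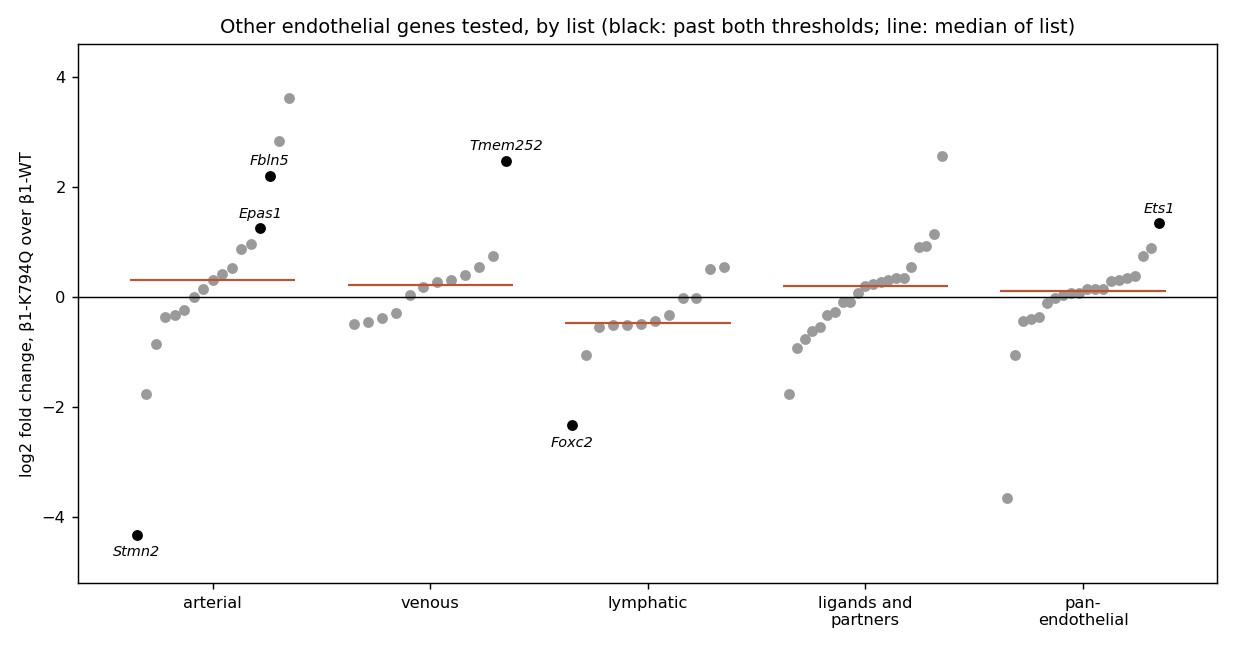
Log2 fold change, β1-K794Q-GFP over β1-WT-GFP (vertical axis), of every tested gene (points) in 5 lists of endothelial genes, with black points and names for genes past both thresholds and a red line at the median of each list. The medians of the arterial, venous, lymphatic, ligand and partner, and pan-endothelial lists lay between -0.46 (lymphatic) and 0.31 (arterial), and at most 3 genes of any of them passed the thresholds.

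Of 12 tip cell genes 11 were tested and 0 passed both thresholds, with a median log2 fold change of 0.51. All 20 pan-endothelial genes were tested, and only Ets1, an endothelial transcription factor, passed (log2 fold change 1.34 ± 0.26, adjusted p = 0.139, edgeR). The share of all tested genes past both thresholds was 5.19%. The 10 haematopoietic markers, of interest because Cxcr4 and Lyve1 also mark blood cells and macrophages, summed to between 48.3 and 89.1 normalized counts in β1-WT-GFP cells and 32.5 to 104 in β1-K794Q-GFP cells. Most of this was Cd68, a lysosomal gene that endothelial cells can express, at 31.0 to 103 normalized counts. Csf1r, a macrophage receptor gene, had 10.7 in WT-C and 0.691 in K794Q-B, the 2 cultures with most Lyve1, and 0.385 to 0.774 in the others. The part of these genes in the Lyve1 values was not tested. Ptprc had 0 to 0.279 normalized counts and Emr1, Tyrobp, Sfpi1 and Cd3e had 0 reads in all cultures. The 9 epithelial and mesothelial markers, relevant to Pdpn, summed to 0.300 to 28.9 normalized counts in β1-WT-GFP cells and 2.60 to 15.9 in β1-K794Q-GFP cells, mostly Msln, with Epcam, Krt18, Upk3b and Wt1 at 0 in all cultures. The 10 smooth muscle and pericyte markers summed to 0.350 to 3.69 normalized counts in β1-WT-GFP and 1.06 to 3.01 in β1-K794Q-GFP cells. The 12 fibroblast and mesenchymal markers differed between the groups, with 84.3 to 197 normalized counts in β1-WT-GFP and 3.53 to 5.30 in β1-K794Q-GFP cells. This difference lay mostly in Prrx1 (56.5 to 194 against 0 to 0.0987), while Dcn, Lum, Twist1, Twist2 and Thy1 had 0 reads in all cultures. In WT-C the sum also held Pdgfra at 16.4, Col1a1 at 5.92, Col3a1 at 3.06 and Pdgfrb at 2.30 normalized counts, and in K794Q-B Col1a2 at 3.16. The part of these genes in the changes of Cxcr4 and Aplnr was not tested. In bulk RNA, fewer cells with a transcript and less transcript per cell cannot be told apart.

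The 5 scarce markers whose level spanned at least 2 log2 units were each compared with the tested genes over the 6 cultures. Likeness was measured as the root mean square difference between log2(CPM + 0.5) profiles, each centered on its mean, and is given as a description of 6 cultures. The genes most like Lyve1 were Btbd11 (0.29), Ctla2b (0.34) and Ctla2a (0.39), the last of which had 757 and 429.97 normalized counts in the 2 cultures where Lyve1 was seen and 96.0 to 154 in the others. Ctla2a and Ctla2b are near-identical copies whose reads may be split uncertainly. Spink5 (0.36), Nme4 (0.40) and A330021E22Rik (0.44) were most like Gja4, and Ugt1a7c (0.18), Mapk4 (0.24) and S100a4 (0.29) most like Gja5, with a single high value in WT-C. Ugt1a7c shares exons with other genes of its cluster, which makes its counts uncertain. The genes most like Cxcr4 were Cfb (0.56), encoding complement factor B, B230312C02Rik (0.59) and Zbp1 (0.68), and those most like Aplnr were Rdh5 (0.49), Ramp3 (0.53) and Enho (0.54). Cfb had 24.0, 30.3 and 3.13 normalized counts in WT-A, WT-B and WT-C and 1.25, 0.0987 and 0.430 in K794Q-A, K794Q-B and K794Q-C. Ramp3, a receptor partner of the adrenomedullin system, had 240 normalized counts in K794Q-B and 3.97 to 24.3 in the other 5.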

How the data were processed

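RNA depleted of ribosomal transcripts was sequenced from 3 β1-WT-GFP and 3 β1-K794Q-GFP cultures. Raw counts of reads per gene symbol were deposited by the authors after alignment with STAR; their processing notes list bcl2fastq 2.20.0, STAR 2.7.4a, HTSeq 0.9.1, edgeR 3.38.4 and mm10, and the annotation and strand setting are not given in the sources used here. The 6 columns were matched to cultures by name, with 0 further columns.

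Counts were analyzed in R 4.3.3 with edgeR 4.0.16: filterByExpr (11608 of 23420 genes kept, at 0.909 CPM in 3 cultures), TMM, and the two-sided quasi-likelihood F-test on group over all 6 cultures. Called genes had a 2-fold difference or more and an unadjusted p of up to 0.05, as the study set; adjusted p values are Benjamini-Hochberg over all tested genes. The standard error is the log2 fold change over the square root of F. Exact permutation tests were used for markers under the filter. Alternatives were no filter, 10 counts in every culture, RLE, DESeq2 1.42.0, a likelihood ratio test, the culture letter as a block, summed cultures and leave-one-out. The script was tested on simulated counts with known changes.

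Positions and exonic lengths came from GENCODE M21 (GRCm38), for 21737 symbols with 1 position. List genes were matched by symbol or RefSeq synonym. All 10 markers are named, with every list gene past both thresholds and the 3 tested genes with the profile closest to each marker that spans 2 log2 units; other genes were named after their values were seen. The members and lists were chosen with earlier results of these data known.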

Additional observations from a re-analysis of the deposited data

How the results depend on the processing

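Cxcr4 and Aplnr kept their direction in all 14 alternatives that could test them, and stayed past both thresholds in 8 and 11 of these. The number of markers past both thresholds, 2, was 0 with at least 10 counts in every culture, where 3 markers were left to test, 0 with WT-A and WT-B summed, 1 with K794Q-A and K794Q-C summed as well, and 0 to 2 with each culture left out. With adjusted p under 0.05 it was 0, and 1 with DESeq2 and 2 (Cxcr4 and Gja4) with K794Q-B and WT-C both left out, added after the data were seen. The number of genes past both thresholds, 603, was 916 without a filter, 1661 with those 2 cultures left out, and 501 to 992 with each left out in turn, the highest without WT-C. The number of genes with adjusted p under 0.05, 21, was 477 with DESeq2, 318 with the likelihood ratio test, 1796 with both cultures left out, 4 with 10 counts in every culture, 1 with WT-A and WT-B summed, 0 with both sums and 0 to 125 with each culture left out. Signs changed for 3 markers that passed no threshold. Gja4 had a log2 fold change of 0.79 with the culture letter as a replicate block, 3.50 without both cultures, and -0.62 to 2.98 with each left out. Emcn had -0.037 without both, and -0.23 to 0.30 with each left out. Unc5b had 0.058 with WT-A and WT-B summed, 0.15 with both sums, and -0.33 to 0.11 with each left out. The cause was not tested. Same-lettered cultures deviated from their group means with correlations of 0.109, 0.055 and 0.102, not all over 0.1. K794Q-B and K794Q-C correlated best with the WT culture of their own letter and K794Q-A with WT-B (0.113). The letters were therefore not taken to pair the cultures; the block gave 571 genes past both thresholds, and 1 gene with adjusted p under 0.05, and left Cxcr4 and Aplnr past both thresholds. For Aplnr, Cxcr4, Gja4, Gja5 and Lyve1, counts under 10 in several cultures limit the precision.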
